A study of Mus musculus with 17 samples.

Results

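Nkx2-1, Hhex, Foxa1, Foxa2, Foxa3, Nkx2-2, Isl1 and Gata6 encode transcription factors of the foregut endoderm and of endocrine cells, and were followed here through RNA-seq counts of 17 mouse tumours. These 8 genes were found by symbol among the 23284 genes of the count tables. The labels give each tumour as a neuroendocrine tumour of the pituitary. In 8 tumours (T1 to T8) alleles of Rb1, Trp53 and Crebbp had been engineered, and in 9 tumours (T1 to T9) alleles of Rb1 and Trp53, so the Rb1 and Trp53 alleles were shared by all 17. The retinoblastoma protein and p53 are the products of Rb1 and Trp53, and that of Crebbp is an enzyme that acetylates histones and assists many transcription factors. The aim given for the series is to find the genes that Crebbp regulates. No source used here gives the Cre driver, the strain, the age or the exons affected. Whether each tumour came from its own mouse is not in the labels, so p-values measure only the spread between these samples, which may be technical.

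Libraries with a higher count of Pomc, the precursor of ACTH, than of Calca, the calcitonin gene, are called Pomc-high, and the rest Calca-high. The 7 Calca-high libraries were T1 to T4 of the Rb1/Trp53/Crebbp group and T1, T3 and T4 of the Rb1/Trp53 group. The 10 Pomc-high libraries were T5 to T8 of the Rb1/Trp53/Crebbp group and T2 and T5 to T9 of the Rb1/Trp53 group. This division comes from the counts and is not one of the study's groups. The 8 genes were proposed with the difference between the sets in view, so their levels in the sets are described without a test. Tests were made of the genotype within each set. Levels are in CPM, counts scaled to the size of the library, after TMM scaling. Each log2 fold change sets Rb1/Trp53/Crebbp against Rb1/Trp53 tumours, so that a positive value is higher in Rb1/Trp53/Crebbp. It is given with its standard error, from edgeR's quasi-likelihood test with Benjamini-Hochberg adjustment over all genes tested.

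The total count on genes was 8328297 to 28140755 per library. Within the Calca-high set depth followed the genotype, with 8328297 to 15490074 counts in Rb1/Trp53/Crebbp and 20361712 to 28140755 in Rb1/Trp53 libraries, and so did the share of reads outside genes, at 18.5% to 21.7% in Rb1/Trp53/Crebbp and 15.9% to 16.5% in Rb1/Trp53 libraries. The labelled tissue did not match the Calca-high libraries: 20 pituitary transcription factors summed to 34.4 to 141 CPM there and to 1295 to 1962 CPM in the Pomc-high libraries. Hormone and receptor genes of the other anterior lobe cells (9 genes) summed to 0.0461 to 0.606 CPM in the Calca-high and 11.3 to 14300 CPM in the Pomc-high set. The whole-gene count of Crebbp was higher, not lower, in the Calca-high libraries labelled with its allele (67.6 to 93.6 CPM, against 48.5 to 55.9 CPM in Rb1/Trp53; log2 fold change 0.60 ± 0.12, adjusted p = 0.00723). In the Pomc-high set the ranges overlapped, at 42.8 to 62.2 CPM in Rb1/Trp53/Crebbp and 39.7 to 116 CPM in Rb1/Trp53 libraries. Counts over the whole gene do not show whether part of it was deleted, so they do not check the labels.

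NKX2-1 is a homeodomain factor needed to form the thyroid, the lung and the ventral forebrain, and it is made in both follicular cells and C cells of the thyroid. HHEX is a homeodomain factor of the anterior endoderm, with roles in the thyroid, liver and pancreas. FOXA1, FOXA2 and FOXA3 are forkhead factors that can bind closed chromatin and open it in endoderm. NKX2-2 and ISL1 act in endocrine cells of the pancreas and gut and in ventral neurons, and GATA6 is a zinc finger factor of early endoderm, heart and lung. C cells make calcitonin, lie between the thyroid follicles and descend from endoderm in the mouse.

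The 250 bases before annotated starts are shown for the 4 genes whose counts were lower in Rb1/Trp53/Crebbp tumours of the Calca-high set, and for Foxa1, whose promoter held the forkhead motif. Sequences are RefSeq's for GRCm38.p6, read on the strand of the gene. Capitals mark matches on either strand to TGTTTAC (forkhead), CTCAAG (bound by NKX2-1), CAAGTG (NK2 class), AGATAA (bound by GATA factors) or TGACGTCA (cyclic AMP response element).
Nkx2-1: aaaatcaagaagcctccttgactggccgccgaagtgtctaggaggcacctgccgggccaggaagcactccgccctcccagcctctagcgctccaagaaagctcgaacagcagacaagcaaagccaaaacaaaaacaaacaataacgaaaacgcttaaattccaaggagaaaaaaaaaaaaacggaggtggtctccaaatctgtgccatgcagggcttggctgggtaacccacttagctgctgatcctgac
Hhex: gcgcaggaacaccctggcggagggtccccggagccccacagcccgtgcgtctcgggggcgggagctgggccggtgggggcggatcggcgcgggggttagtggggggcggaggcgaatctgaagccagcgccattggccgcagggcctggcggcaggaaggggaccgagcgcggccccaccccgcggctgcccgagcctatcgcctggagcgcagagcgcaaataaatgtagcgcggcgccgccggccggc
Foxa2, the start site of lowest coordinate: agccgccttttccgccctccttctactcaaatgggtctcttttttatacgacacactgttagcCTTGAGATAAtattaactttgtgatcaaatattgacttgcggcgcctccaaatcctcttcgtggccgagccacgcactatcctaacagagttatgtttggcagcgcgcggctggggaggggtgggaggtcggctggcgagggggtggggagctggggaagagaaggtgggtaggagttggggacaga
Nkx2-2: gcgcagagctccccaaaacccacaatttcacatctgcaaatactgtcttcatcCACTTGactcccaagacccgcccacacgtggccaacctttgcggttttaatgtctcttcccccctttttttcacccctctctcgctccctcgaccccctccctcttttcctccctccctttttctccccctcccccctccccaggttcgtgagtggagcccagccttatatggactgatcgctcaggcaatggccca
Foxa1: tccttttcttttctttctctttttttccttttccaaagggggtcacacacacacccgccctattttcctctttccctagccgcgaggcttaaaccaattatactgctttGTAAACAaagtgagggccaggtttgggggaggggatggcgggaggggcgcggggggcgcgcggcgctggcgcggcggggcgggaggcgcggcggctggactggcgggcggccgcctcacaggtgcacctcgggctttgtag
They lie at chr12:56536909-56537158 (minus strand) for Nkx2-1, chr19:37434591-37434840 (plus) for Hhex, chr2:148045465-148045714 (minus) for Foxa2, chr2:147186403-147186652 (minus) for Nkx2-2 and chr12:57546112-57546361 (minus) for Foxa1. The Foxa1 promoter held the forkhead motif on the opposite strand, 141 to 135 bases before the start. Over 32851 promoters of the same length 3.17% held it. In Foxa2 the CTCAAG motif on the opposite strand shared 2 bases with an AGATAA motif, 187 to 178 bases before the last of 3 annotated starts. These motifs were held by 13.3% and 9.99% of promoters. The windows of the other annotated Foxa2 starts held none of the 5 motifs. The Foxa3 promoter, which is not shown, held CTCAAG on the opposite strand. The Nkx2-2 promoter held CAAGTG on the opposite strand (11.6% of promoters). The cyclic AMP response element, the site to which CREB recruits the CREBBP protein, was held by 1.55% of promoters, and by none of the 9 promoter windows read for 7 of the 8 genes. The Nkx2-1 and Hhex windows held none of the 5 motifs, which says only that these letters are not in them.

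Nkx2-1, Hhex, Foxa1, Foxa2 and Isl1 were abundant in every Calca-high library and low in every Pomc-high one, while Foxa3 and Gata6 were low in both sets. Nkx2-2 stood between them, at a modest level in the 3 Rb1/Trp53 tumours of the Calca-high set. Ranges that did not overlap between the sets, higher in Calca-high, were found for 5 of the 8 genes and for 11.7% of all genes (22.5% in either direction), and nothing is read from this, since the genes were chosen on that contrast. In bulk RNA, fewer cells of a type and less RNA per cell cannot be told apart.

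Nkx2-1 was at 257, 213, 189 and 219 CPM in the Calca-high Rb1/Trp53/Crebbp libraries and at 333, 329 and 333 CPM in the Calca-high Rb1/Trp53 libraries. In the Pomc-high set it was at 2.11, 1.33, 1.65 and 14.5 CPM in Rb1/Trp53/Crebbp and at 0.427 to 2.81 CPM (median 1.60) in Rb1/Trp53 libraries. The mean was 92.3 times as high in the Calca-high as in the Pomc-high set, and 166 times without Rb1/Trp53/Crebbp T8, the Pomc-high library at 14.5 CPM. Hhex was at 247, 213, 205 and 193 CPM in Calca-high Rb1/Trp53/Crebbp libraries and 471, 419 and 399 CPM in Rb1/Trp53 ones, against 0.0737 to 1.63 CPM in the Pomc-high set. Its ratio of means, 460, was the highest of the 8 genes.

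Of the forkhead genes, Foxa1 was at 91.9, 134, 83.2 and 126 CPM in the Calca-high Rb1/Trp53/Crebbp libraries and 126, 115 and 129 CPM in the Rb1/Trp53 ones, against 0.0672 to 1.96 CPM in the Pomc-high set. Its genotypes overlapped in both sets, and the ratio of means between the sets was 214. Foxa2 was at 107, 83.9, 93.1 and 81.8 CPM in the Calca-high Rb1/Trp53/Crebbp libraries and 150, 161 and 170 CPM in the Rb1/Trp53 ones, against 0 to 0.732 CPM in the Pomc-high set. The ratio of means was 326. The library at 0, Rb1/Trp53/Crebbp T5, allows up to 0.316 CPM (3 counts, counting error only). Foxa3 stayed at 0.151 to 1.22 CPM in the Calca-high and 0 to 0.633 CPM in the Pomc-high set. The Foxa3 ranges overlapped, with 62 counts over the 7 Calca-high and 34 over the 10 Pomc-high libraries.

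Isl1, a LIM homeodomain factor, was at 137, 125, 112 and 100 CPM in Calca-high Rb1/Trp53/Crebbp and 114, 114 and 121 CPM in Rb1/Trp53 libraries. In the Pomc-high set it was at 0.516 to 7.97 CPM, with Rb1/Trp53/Crebbp T8 again the highest. Its ratio of means between the sets was 42.7. Nkx2-2, an NK2 homeodomain factor, was at 1.38, 0.923, 0.513 and 0.713 CPM in Calca-high Rb1/Trp53/Crebbp libraries and at 9.67, 10.1 and 22.3 CPM in the Rb1/Trp53 ones, against 0 to 2.03 CPM in the Pomc-high set. The Calca-high mean was 25.1 times the Pomc-high mean, but 1.64 times within the Rb1/Trp53/Crebbp genotype and 186 times within Rb1/Trp53. The ratios of 25.1 and 1.64 rested on Pomc-high Rb1/Trp53/Crebbp T8, at 2.03 CPM: without it the ratio over all libraries was 104 and the sets did not overlap. In the Rb1/Trp53/Crebbp genotype Nkx2-2 then averaged 0.881 CPM in the Calca-high libraries and 0.0367 CPM, a single count, in the 3 Pomc-high ones. Gata6 went the other way, with 0.318 to 1.47 CPM in the Calca-high and 1.46 to 3.73 CPM in the Pomc-high set, a ratio of means of 0.336. These ranges touched at a single library, Rb1/Trp53/Crebbp T8.

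**Figure D1:**
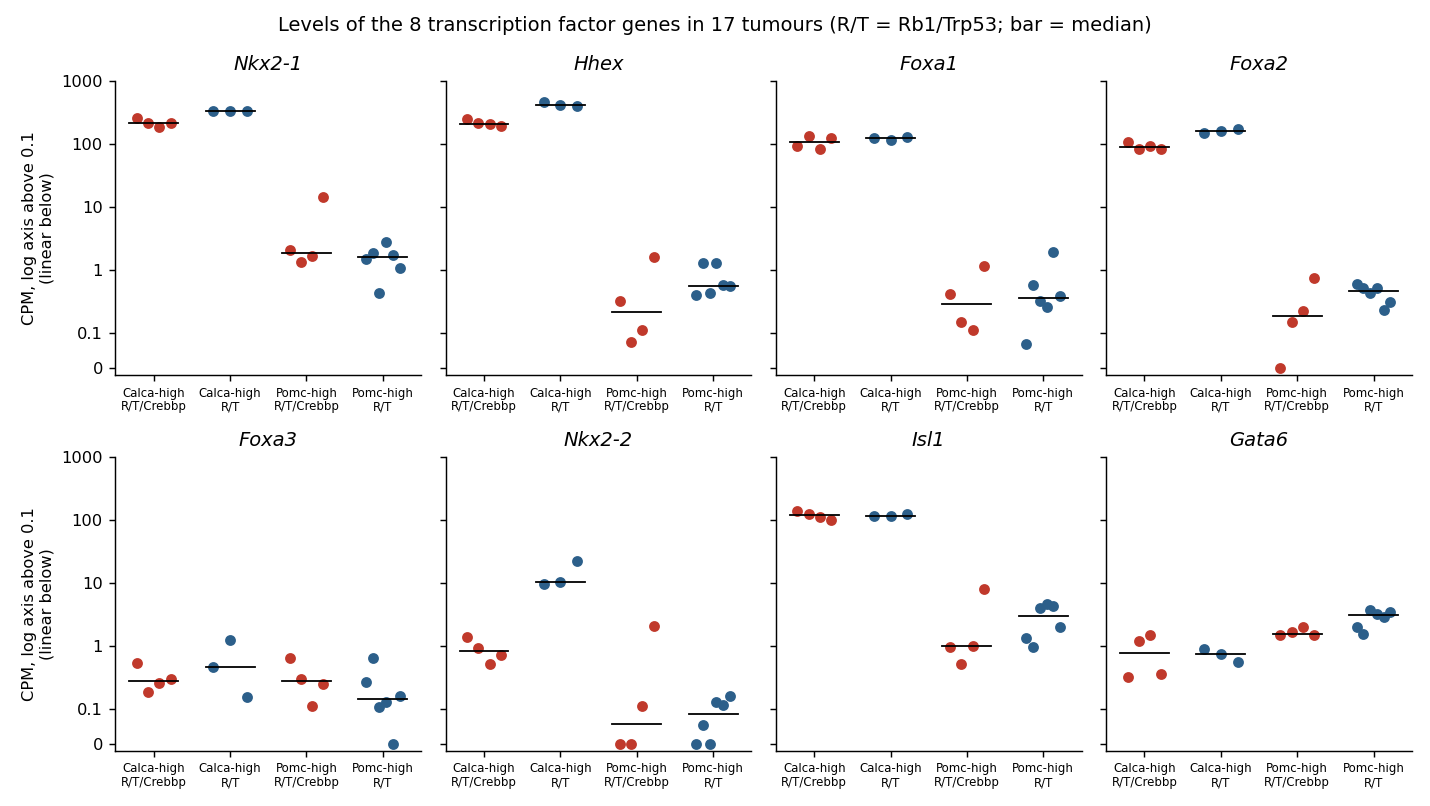
Level of each of the 8 genes in every tumour, in CPM on an axis that is logarithmic above 0.1 and linear below, with points for libraries and bars for medians of the 4 combinations of set and genotype. Nkx2-1, Hhex, Foxa1, Foxa2 and Isl1 lie at 81.8 to 471 CPM in Calca-high libraries, and Rb1/Trp53/Crebbp T8 is the Pomc-high point at 14.5 CPM for Nkx2-1 and 7.97 CPM for Isl1.

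Per kilobase of exon (GENCODE M21 lengths on GRCm38, not the annotation the reads were counted on), the Calca-high means ran from 160 CPM per kb for Hhex through 94.1 for Nkx2-1, 55.4 for Foxa2, 46.7 for Isl1 and 36.1 for Foxa1 to 2.59 for Nkx2-2. Gata6 (0.242 CPM per kb) and Foxa3 (0.217) came last. Hhex exceeded Nkx2-1, and Nkx2-1 exceeded Foxa2, in 7 of 7 libraries, although their ranges over libraries overlapped. Foxa2 exceeded Isl1 in 3 of 7 libraries, so their order was not stable, and Gata6 exceeded Foxa3 in 4 of 7. The step from Foxa1 (26.1 to 42.0 CPM per kb) to Nkx2-2 (0.204 to 8.86) was the only one between neighbours in this order without overlap.

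Within the Calca-high set Hhex, Foxa2, Nkx2-1 and Nkx2-2 were lower in Rb1/Trp53/Crebbp than in Rb1/Trp53 tumours, and in each of them every Rb1/Trp53/Crebbp library lay below every Rb1/Trp53 library. Foxa1, Isl1 and Gata6 did not pass the test. Foxa3 had too few counts to be tested. Of the 7 genes tested 4 fell, while 36.2% of 14797 genes passed the same test and 17.1% fell. The median log2 fold change was -0.58 over the 7 genes and -0.02 over all genes tested. Ranges of the genotypes did not overlap for 44.4% of all genes, and 22.6% had every Rb1/Trp53/Crebbp library below every Rb1/Trp53 one.

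Nkx2-2 showed the largest of these changes, with 13, 15, 8 and 12 counts in the Rb1/Trp53/Crebbp and 210, 265 and 442 counts in the Rb1/Trp53 libraries. In CPM it averaged 0.881 ± 0.371 in Rb1/Trp53/Crebbp (SD, n = 4) and 14.0 ± 7.17 in Rb1/Trp53 tumours (SD, n = 3). The log2 fold change was -4.0 ± 0.42 (adjusted p = 0.00112). Hhex averaged 214 ± 23.1 CPM in Rb1/Trp53/Crebbp and 429 ± 37.1 CPM in Rb1/Trp53 tumours, which is a log2 fold change of -0.98 ± 0.11 (adjusted p = 0.00135). Foxa2 averaged 91.5 ± 11.5 CPM in Rb1/Trp53/Crebbp and 160 ± 10.1 CPM in Rb1/Trp53 tumours (-0.79 ± 0.11, adjusted p = 0.00224). Nkx2-1 averaged 219 ± 28.1 CPM in Rb1/Trp53/Crebbp and 332 ± 2.12 CPM in Rb1/Trp53 tumours (-0.58 ± 0.11, adjusted p = 0.00656). The Nkx2-1 call was lost when all 17 libraries shared one estimate of the spread (-0.59 ± 0.47, adjusted p = 0.342).

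**Figure D2:**
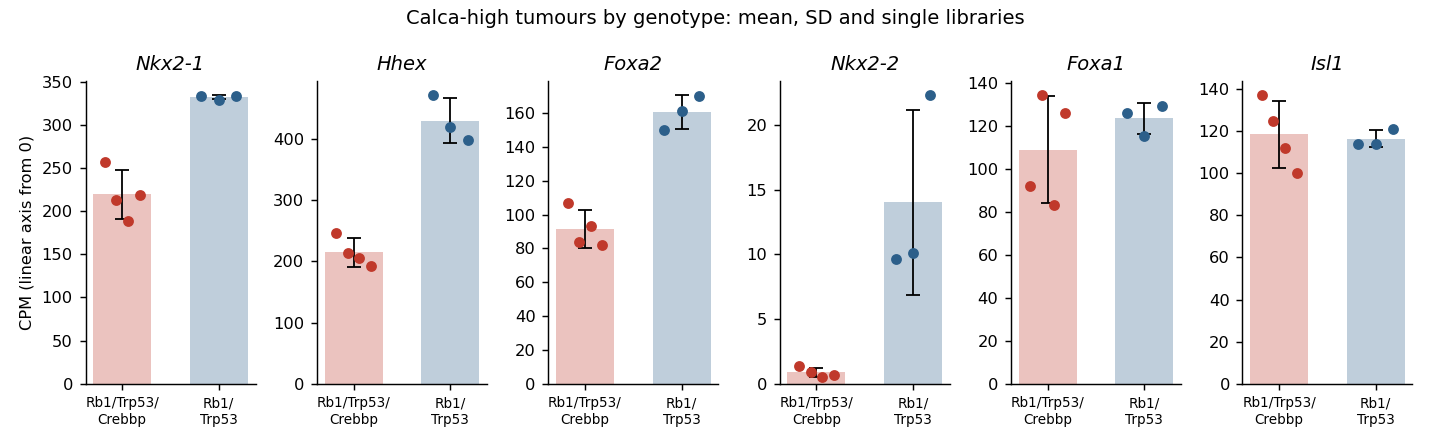
CPM of 6 of the genes in the 7 Calca-high tumours on linear axes from 0, with bars for means, error bars for SD (n = 4 Rb1/Trp53/Crebbp, left, and n = 3 Rb1/Trp53, right) and points for libraries. The genotypes do not overlap for Nkx2-1, Hhex, Foxa2 and Nkx2-2, and they overlap for Foxa1 and Isl1.

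Foxa1 averaged 109 ± 25 CPM in Rb1/Trp53/Crebbp and 124 ± 7.20 CPM in Rb1/Trp53 tumours (-0.16 ± 0.17, adjusted p = 0.478). Isl1 averaged 118 ± 16.0 CPM in Rb1/Trp53/Crebbp and 116 ± 4.06 CPM in Rb1/Trp53 tumours (0.05 ± 0.12, adjusted p = 0.781). Gata6 had 51 counts over the Rb1/Trp53/Crebbp and 49 over the Rb1/Trp53 libraries (0.25 ± 0.57, adjusted p = 0.756). Its sign turned without Rb1/Trp53/Crebbp T3 (-0.17), and that of Isl1 without Rb1/Trp53/Crebbp T1 (-0.03).

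Genes of thyroid follicular cells, which also make NKX2-1 and HHEX, moved with the genotype in these libraries. Of 12 such genes tested 9 fell and 0 rose, and the 13 on the list summed to 956 to 1335 CPM in Rb1/Trp53/Crebbp and 2193 to 17240 CPM in Rb1/Trp53 libraries, with none at 0. Among them Pax8, a partner of NKX2-1 in the thyroid, was at 10.4, 6.28, 4.94 and 8.02 CPM in Rb1/Trp53/Crebbp T1 to T4 and 89.7, 47.0 and 20.9 CPM in Rb1/Trp53 T1, T3 and T4. Tg, the thyroglobulin gene, was at 904, 1089, 1196 and 1257 CPM in Rb1/Trp53/Crebbp T1 to T4 and at 16750, 6666 and 2068 CPM in those Rb1/Trp53 libraries. Over the same 3 libraries Hhex had the order of Tg, at 471, 419 and 399 CPM in T1, T3 and T4. Nkx2-1 was at 333, 329 and 333 CPM there, while Foxa2 (150, 161 and 170 CPM) and Nkx2-2 (9.67, 10.1 and 22.3 CPM) had the opposite order. Over Rb1/Trp53/Crebbp T1 to T4 Hhex ran opposite to Tg, at 247, 213, 205 and 193 CPM. With the mean log2 CPM of this list as a covariate, an alternative chosen after the data had been seen, Nkx2-2 (-5.11 ± 0.46, adjusted p = 0.00321) and Foxa2 (-1.03 ± 0.20, adjusted p = 0.0254) still passed. Hhex (-0.83 ± 0.22, adjusted p = 0.0533) and Nkx2-1 (-0.57 ± 0.23, adjusted p = 0.138) did not, and their standard errors had grown to 0.22 and 0.23, from 0.11 each without the covariate. The count of all genes called was 1450 with the covariate and 5355 without it. The summed level of the list did not overlap between the genotypes, so this fit cannot tell follicular cell content from genotype. Nothing is concluded from which of the genes passed it.

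**Figure D3:**
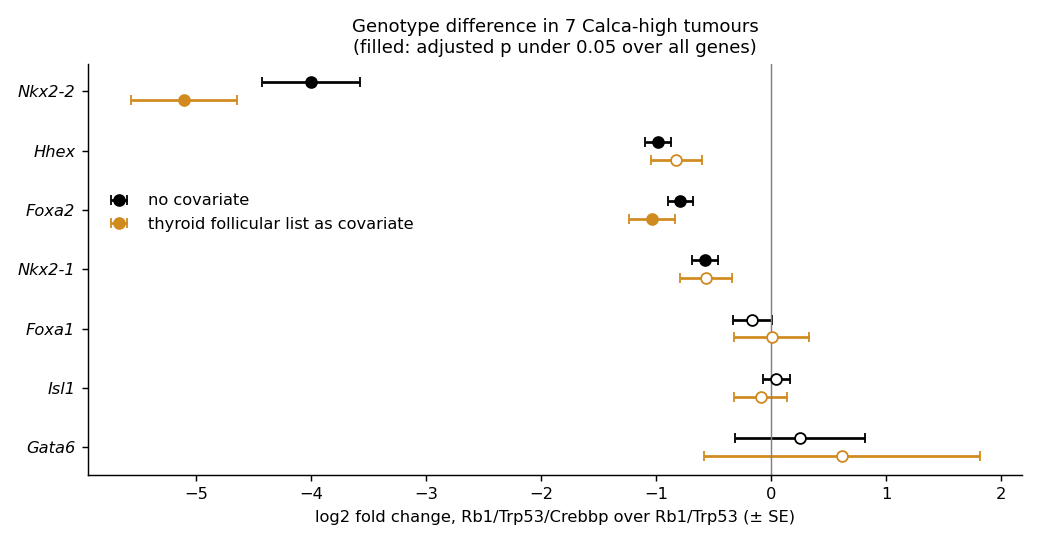
Log2 fold change of 7 genes, Rb1/Trp53/Crebbp over Rb1/Trp53, with SE bars in the 7 Calca-high tumours, without a covariate (black) and with the thyroid follicular list as covariate (orange). Filled points pass an adjusted p of 0.05. Nkx2-2 and Foxa2 are filled under both fits.

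Genes of other cell types were also called in the Calca-high set, and the part of such cells in the result was not tested. Of all genes tested there 17.1% fell and 19.1% rose. Of 17 endothelial genes 10 fell and 1 rose, with 6 (without Rb1/Trp53 T3) to 13 falling when 1 library was left out and 0 falling with the thyroid covariate (summed level 104 to 142 CPM in Rb1/Trp53/Crebbp and 172 to 193 CPM in Rb1/Trp53 libraries). Of 16 genes of smooth muscle, pericytes and fibroblasts 4 fell and 0 rose, with 2 to 7 falling when 1 library was left out (254 to 814 CPM in Rb1/Trp53/Crebbp and 719 to 1073 CPM in Rb1/Trp53 libraries). Their count was 2 without Rb1/Trp53 T3 or without T1, T3 or T4 of Rb1/Trp53/Crebbp, and 7 without Rb1/Trp53/Crebbp T2. Their summed ranges overlapped between the genotypes, and no shift of these cells is read from this list. Of 13 lung epithelial genes tested 7 fell and 2 rose, with 5 to 8 falling and 0 to 2 rising when 1 library was left out (248 to 346 CPM in Rb1/Trp53/Crebbp and 404 to 557 CPM in Rb1/Trp53 libraries). No lung epithelial gene rose without T1 or T3 of Rb1/Trp53 or without T2, T3 or T4 of Rb1/Trp53/Crebbp. Alb was at 0 in all 17 libraries.

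**Figure D4:**
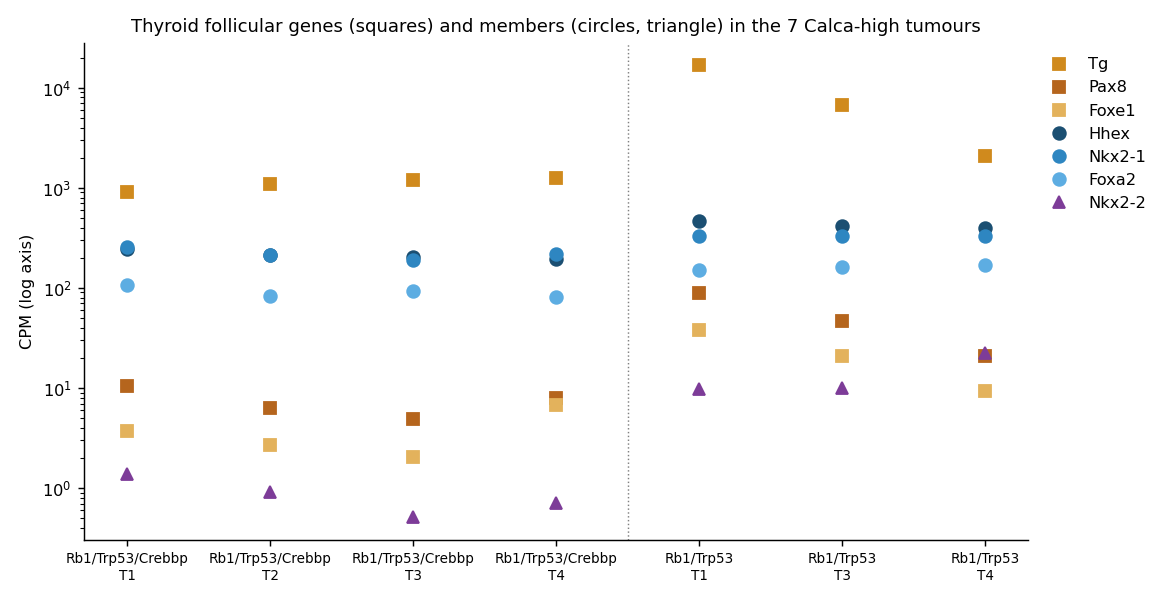
CPM on a log axis of 3 thyroid follicular genes (squares), Hhex, Nkx2-1 and Foxa2 (circles) and Nkx2-2 (triangles) in the 7 Calca-high tumours, Rb1/Trp53/Crebbp left of the dotted line and Rb1/Trp53 right of it. From Rb1/Trp53 T1 to T4 the points of Tg run between 16750 and 2068 CPM, those of Hhex in the same order between 471 and 399 CPM, and those of Nkx2-1 lie at 329 to 333 CPM. From Rb1/Trp53/Crebbp T1 to T4 Tg goes up from 904 to 1257 CPM and Hhex goes down from 247 to 193 CPM.

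In the Pomc-high set 3 of the 8 genes had enough counts to be tested and 0 passed (edgeR), while 8.42% of 14010 genes did (3.15% rose and 5.26% fell). Unadjusted p-values under 0.05 were found for 2 of the 3, and 0 passed with limma-voom or with DESeq2, which gave an adjusted p for 2. Nkx2-1 averaged 4.89 ± 6.40 CPM in Rb1/Trp53/Crebbp (SD, n = 4) and 1.57 ± 0.801 CPM in Rb1/Trp53 tumours (SD, n = 6), and the log2 fold change was 1.67 ± 0.68 (adjusted p = 0.15). Without Rb1/Trp53/Crebbp T8 it was 0.15 ± 0.43 (adjusted p = 0.871). Gata6 averaged 1.64 ± 0.242 CPM in Rb1/Trp53/Crebbp and 2.78 ± 0.874 CPM in Rb1/Trp53 tumours (-0.73 ± 0.30, adjusted p = 0.15). Isl1 averaged 2.61 ± 3.58 CPM in Rb1/Trp53/Crebbp and 2.84 ± 1.61 CPM in Rb1/Trp53 tumours (-0.05 ± 0.75, adjusted p = 0.978), and without Rb1/Trp53/Crebbp T8 the value was -1.73 ± 0.56 (adjusted p = 0.0761).

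Rb1/Trp53/Crebbp T8 stood apart from the other Pomc-high libraries in several of the 8 genes: Nkx2-1 had 178 counts there and 4 to 36 in the others, and Nkx2-2 had 25 counts there and 0 to 2 in the others. Genes of posterior lobe and hypothalamic glia (14) summed to 1157 CPM in that library, against 182 to 393 CPM in the other 9. The astrocyte gene Gfap was at 156 CPM there and at 0.32 to 33.0 CPM in the others. NKX2-1 is also a factor of the ventral hypothalamus and posterior lobe. The part of such cells in the result was not tested.

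The difference between the genotype effects of the sets was tested as an interaction, which 22.9% of 15432 genes passed. Of the 7 factors tested it was called for Nkx2-2 (-6.87 ± 1.34, adjusted p = 0.00261) and Nkx2-1 (-2.28 ± 0.76, adjusted p = 0.0422). Without Rb1/Trp53/Crebbp T8 neither passed (Nkx2-2 -3.10 ± 2.10, adjusted p = 0.296; Nkx2-1 -0.76 ± 0.38, adjusted p = 0.158). Nkx2-1 lost the call in 12 of the 17 fits that left out 1 library, and with limma-voom (adjusted p = 0.0662). For Hhex (-0.53 ± 0.68), Foxa2 (-0.19 ± 0.59), Foxa1 (0.03 ± 0.71), Isl1 (-0.04 ± 0.79) and Gata6 (0.99 ± 0.61) it did not pass. Nkx2-2, Hhex, Foxa1 and Foxa2 had too few counts to be tested within the Pomc-high set. They entered the interaction test through the Calca-high libraries, so no conclusion is drawn from their interaction values. Nkx2-2 had 31 counts over the 10 Pomc-high libraries, 25 of them in Rb1/Trp53/Crebbp T8.

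Relatives of the 8 genes were mostly near 0 in the Calca-high libraries. Of 8 NK2 and Islet relatives, Isl2 alone had enough counts to be tested. It was at 30 to 47.3 CPM in Rb1/Trp53/Crebbp and 18.5 to 34.5 CPM in Rb1/Trp53 libraries (0.51 ± 0.24, adjusted p = 0.135), against 0 to 0.806 CPM in the Pomc-high set. Of 15 Fox and Gata relatives with counts 8 were tested, 2 rose, 2 fell and 4 did not pass, and with the thyroid covariate 0 passed. Foxe1, a forkhead factor of the thyroid, fell (-2.55 ± 0.55, adjusted p = 0.0108), at 2.05 to 6.83 CPM in Rb1/Trp53/Crebbp and 9.34 to 38.0 CPM in Rb1/Trp53 libraries. Foxp1 rose (0.30 ± 0.10), as did Foxf1a, a factor of the gut mesenchyme (1.70 ± 0.47), and Foxp2 fell (-1.96 ± 0.56), with Foxf1a and Foxp2 under 2 CPM in both genotypes. Calls were lost for Foxp1 and Foxp2 in 5 of 7 fits that left out 1 library and for Foxf1a in 2 of the 4 in which it was tested, with the highest adjusted p without Rb1/Trp53 T1 (0.125, 0.0844 and 0.0749).

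Other endoderm factors went both ways within the Calca-high set. Of 27 on the list 13 were tested, 5 rose, 4 fell and 4 did not pass, and their median log2 fold change was -0.13. The 5 rises held in number when 1 library was left out, while the count that fell was 2 without Rb1/Trp53 T4 or without T1 or T2 of Rb1/Trp53/Crebbp. Prox1, a homeodomain factor of liver, pancreas and lymphatic vessels, rose and had the smallest adjusted p of the list (1.56 ± 0.14, adjusted p = 7.8e-04), at 105 to 159 CPM in Rb1/Trp53/Crebbp and 42.0 to 47.6 CPM in Rb1/Trp53 libraries. Onecut2, a factor of liver and neuroendocrine cells, was at 51.6 to 69.8 CPM in Rb1/Trp53/Crebbp and 2.53 to 9.57 CPM in Rb1/Trp53 libraries (3.32 ± 0.40, adjusted p = 0.00181). Pax9, needed for the pharyngeal pouches, was at 108 to 119 CPM in Rb1/Trp53/Crebbp and 69.0 to 80.7 CPM in Rb1/Trp53 libraries (0.69 ± 0.09, adjusted p = 0.00189), and at 0.0737 to 1.41 CPM in the Pomc-high set. Klf5 (2.13 ± 0.30) and Spdef (2.53 ± 0.57), both factors of epithelia, also rose. In contrast to these, Pax8 (-2.83 ± 0.48), the epithelial factor Grhl2 (-1.55 ± 0.37), Creb3l1 (-0.82 ± 0.23) and Tbx1, a factor of the pharyngeal arches (-3.53 ± 1.16), fell. Tbx1 rested on Rb1/Trp53 T4, at 18 CPM, and was -0.63 without it (adjusted p = 0.31). Creb3l1 lost its call in 4 of 7 fits that left out 1 library. With the thyroid list as covariate 3 of the 13 tested genes rose and 1, Tbx1, fell. Of the 5 rises named here Prox1 (adjusted p = 0.0287 by edgeR) and Spdef (0.043) still passed. Onecut2 (0.102), Pax9 (0.0514) and Klf5 (0.0732) did not. Pax8 and Foxe1 are themselves on the thyroid list.

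**Figure D5:**
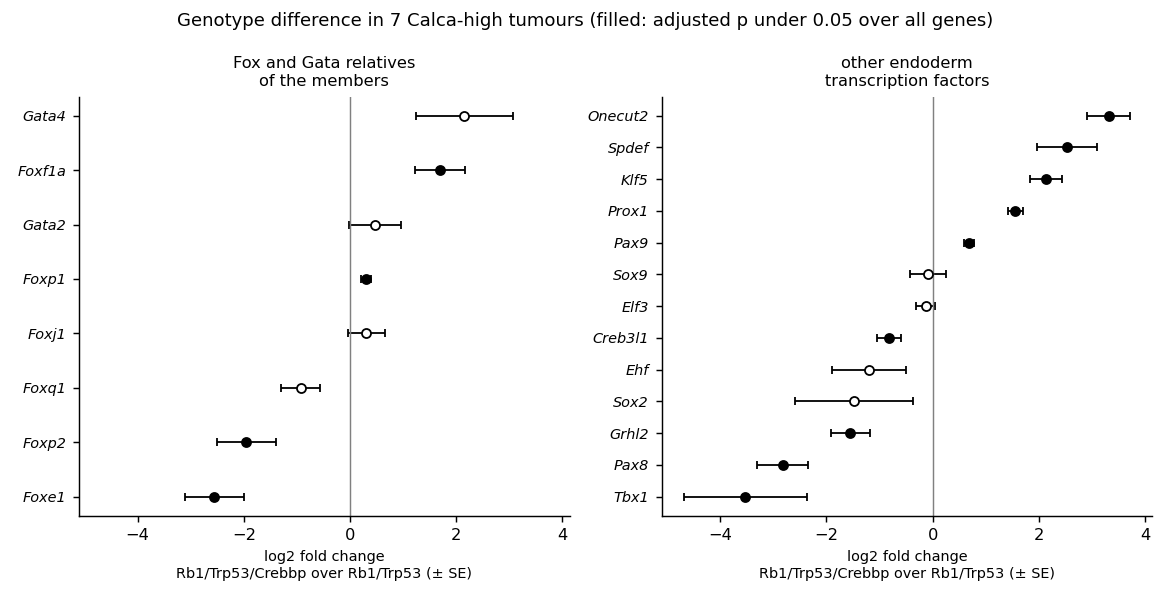
Log2 fold changes with SE bars, Rb1/Trp53/Crebbp over Rb1/Trp53, of the tested genes of 2 lists in the 7 Calca-high tumours, with filled points for an adjusted p under 0.05. Fox and Gata relatives and other endoderm factors lie on both sides of 0, from Onecut2 at 3.32 to Tbx1 at -3.53.

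Of 24 endocrine and neuroendocrine factors 12 were tested, 5 rose, 2 fell and 5 did not pass, with 2 rising and 0 falling without Rb1/Trp53 T3. Myt1l, a factor of neurons and endocrine cells, was at 92.8 to 97.9 CPM in Rb1/Trp53/Crebbp and 36.7 to 52.8 CPM in Rb1/Trp53 libraries (1.13 ± 0.12, adjusted p = 0.00118). Its relative St18 (0.37 ± 0.09), Rfx3 (0.31 ± 0.08) and Pou4f1 (3.04 ± 0.90) rose as well. Leaving out 1 library in turn, St18 lost its call in 1 of 7 fits (without Rb1/Trp53 T3, adjusted p = 0.0583), Rfx3 in 1 (without Rb1/Trp53 T1, adjusted p = 0.0685) and Pou4f1 in 5. Insm1, a zinc finger factor of endocrine cells, fell (-0.61 ± 0.20, adjusted p = 0.0419) and lost the call in 6 of 7 such fits; it was named after its values were seen. Neurog3, which starts endocrine differentiation in pancreas and gut, was at 64.3, 10.3, 23.3 and 51.5 CPM in Rb1/Trp53/Crebbp and 199, 112 and 39.2 CPM in Rb1/Trp53 libraries (-1.64 ± 0.74, adjusted p = 0.13). It did not exceed 0.345 CPM in the Pomc-high set.

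For comparison with the next 2 lists, 17.1% of all genes tested in the Calca-high set fell and 19.1% rose. Of 20 C-cell genes 15 were tested, 8 fell, 1 rose and 6 did not pass (median log2 fold change -0.96). The 8 include Calca, whose count defines the set (-1.41 ± 0.30, adjusted p = 0.00868). Ret, the receptor tyrosine kinase of the GDNF family, was at 126 to 169 CPM in Rb1/Trp53/Crebbp and 272 to 429 CPM in Rb1/Trp53 libraries (-1.23 ± 0.16, adjusted p = 0.00188). Its coreceptor gene Gfra4 (-0.99 ± 0.11) and the cadherin gene Cdh1 (-1.89 ± 0.15) fell, and the coreceptor gene Gfra1 rose (3.22 ± 0.55). Of 19 tested genes that FOXA factors or NKX2-1 are known to bind in liver, lung or thyroid, 11 fell, 3 rose and 5 did not pass, with 7 falling without Rb1/Trp53 T3. Among them Scgb3a2, a secretoglobin of the airway, fell (-3.48 ± 0.67), while Nfib (0.70 ± 0.13) and Foxm1 (1.04 ± 0.19) rose. Pck1, a gluconeogenic enzyme gene, had 0 to 2 counts in Rb1/Trp53/Crebbp and 37 to 422 counts in Rb1/Trp53 libraries (adjusted p = 0.00204). That list holds Tg and other follicular genes too, and with the thyroid list as covariate 3 of its genes fell and 1 rose. Whether its genes follow the factors was not tested.

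Along the chromosome, only some neighbours of the 8 genes shared their pattern between the sets. E030019B13Rik, listed by RefSeq as Sfta3-ps and next to Nkx2-1, was at 71.7 to 115 CPM in Rb1/Trp53/Crebbp and 90.7 to 159 CPM in Rb1/Trp53 libraries of the Calca-high set, and at 0 to 3.58 CPM in the Pomc-high set, again highest in Rb1/Trp53/Crebbp T8. Its genotype difference did not pass (-0.43 ± 0.22, adjusted p = 0.155). The annotation has 2 further genes between Hhex and each of its nearest counted neighbours, and 1 between Gata6 and Rbbp8. The strand setting of the counting is not given, so reads of overlapping or antisense genes cannot be told apart. Exoc6, the nearest counted gene on one side of Hhex, was at 45.0 to 65.6 CPM in the Calca-high and 8.95 to 15.1 CPM in the Pomc-high set, with no genotype call (-0.18 ± 0.12, adjusted p = 0.259). On the other side of Hhex, Kif11, a mitotic kinesin gene, rose (1.17 ± 0.18, adjusted p = 0.00276), as did Rbbp8, the nearest counted gene on one side of Gata6 (0.74 ± 0.10, adjusted p = 0.00223). The neighbours of Foxa3, Irf2bp1 and Sympk, were at 74.8 to 151 CPM in all 17 libraries, where Foxa3 did not exceed 1.22 CPM.

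The genes most like 3 of the factors were named by Pearson correlation of log2 CPM among 11846 genes whose Calca-high mean reached 5 CPM, as a description. Over all 17 libraries, which fall into the sets, the 3 nearest to Nkx2-1 were Ret (r = 0.991), Tnfaip8l3 (0.989) and Trim62 (0.986). Nearest to Foxa2 were Hoxb7 (0.994), Mesp1 (0.994) and Hoxb6 (0.992), and nearest to Hhex were Olfml3 (0.993), Foxa2 itself (0.991) and Gm5148 (0.990). These libraries share the division that defines the sets. Over the 7 Calca-high libraries, which differ in genotype and depth, Nkx2-1 was nearest to Glt8d1 (0.996), Aup1 (0.995) and Arl3 (0.994). Foxa2 was nearest to A430005L14Rik (0.997), Mrps28 (0.996) and Nek3 (0.995), and Hhex to Cdh1 (0.996), Sytl3 (0.990) and Rpl7a (0.989). Over these 7 libraries Nkx2-1 had r = 0.960 with Nkx2-2, 0.956 with Hhex and 0.941 with Foxa2, but 0.417 with Foxa1 and 0.150 with Isl1. Nkx2-2, Hhex and Foxa2 ranked only 247, 293 and 502 among the genes compared. Like Nkx2-1 they differed between the genotypes, which these libraries mix.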

How the data were processed

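RNA of 17 mouse tumours was sequenced. The authors deposited 1 table of raw read counts per gene for each tumour, holding 23284 symbols; 5 rows of unassigned reads were left out (the row of reads on no gene held 11.7% to 21.7% of the reads). Per the submitters' processing notes, bcl2fastq 1.8.2, TopHat2 2.0.12 and HTSeq 0.6.1 were used with the mm9 build; the strand setting and the annotation were not given in the sources used here. Such reads carry no molecular identifiers, so limits from counts cover counting error only.

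The 8 genes and the 14 other gene lists were chosen with earlier results of these data known. Genotypes came from the labels and the 2 sets from the higher of Pomc and Calca. Counts were tested with edgeR 4.0.16 (R 4.3.3; low counts removed with filterByExpr, TMM scaling, quasi-likelihood test, Benjamini-Hochberg adjustment over all genes, threshold 0.05) within each set, and as an interaction over 4 groups of set and genotype. The code was tested on simulated data. Alternatives were DESeq2 1.42.0 and its size factors, limma-voom (limma 3.58.1), no filter on low counts, 1 fit over all libraries, a replicate block, leaving out each library, and a thyroid covariate chosen after the data had been seen. Genes named were the 8 factors, every called gene of the 3 lists of related and endoderm factors, up to 4 with the smallest adjusted p and up to 6 with the highest level from each other list, chromosomal neighbours, and the 3 most correlated genes (log2 CPM, prior count 2). Of 64 pairs of libraries of the same genotype, 0 agreed within sampling noise. Replicate numbers did not pair the samples (correlations of same-numbered deviations -0.161 to 0.194). A called gene of the endocrine list is counted but not reported here.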

Additional observations from a re-analysis of the deposited data

Results flagged for a closer look

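Within groups of 4 to 6 libraries, a value was singled out when its gap to the nearest other library was large for the range of its group (Dixon's test at 95%), which chance does in about 1 in 20 groups; 19 of 136 groups of the 8 factors and the other genes named were singled out. In 7 of them the library was Pomc-high Rb1/Trp53/Crebbp T8, with Nkx2-1 at 14.5 CPM, Hhex at 1.63, Nkx2-2 at 2.03, Isl1 at 7.97, Ret at 8.54, Cdh1 at 5.94 and E030019B13Rik at 3.58 CPM, each the highest of its group. That library also had the highest summed level of posterior lobe and hypothalamic glia genes (1157 CPM), and the part of such cells in these values was not tested. Foxa1 was highest in Pomc-high Rb1/Trp53 T8 (1.96 CPM). In Pomc-high Rb1/Trp53 T7, Foxe1 (1.02 CPM), Pax8 (1.15) and Scgb3a2 (1.15) were highest, beside Tg at 151 CPM. Single values were Foxe1 at 0.211 CPM and Foxp1 at 77.8 CPM in Pomc-high Rb1/Trp53/Crebbp T5, and Grhl2 at 0.0737 CPM and Neurod4 at 4.13 CPM in T6 of that genotype. Foxf1a was at 0.782 CPM in Rb1/Trp53 T9, Rbbp8 at 13.6 CPM in Rb1/Trp53 T6, Fgb at 0.0672 CPM in Rb1/Trp53 T2 and Pax9 at 108 CPM in Calca-high Rb1/Trp53/Crebbp T2. Foxe1 at 0.211 CPM was 2 counts, and the values of Grhl2 and Fgb also rest on very few reads. The rate of 1 in 20 need not hold for groups so near 0.

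EdgeR's interaction test (Calca-high minus Pomc-high, log2 scale, adjusted p under 0.05 over all genes) was passed by Nkx2-1 (-2.28) and Nkx2-2 (-6.87) among the 8 factors. Neither passed without Rb1/Trp53/Crebbp T8. Among other named genes the interaction was positive for Foxf1a (2.47), Prox1 (1.98), Onecut2 (3.15), Pax9 (3.33), Klf5 (2.14), Spdef (2.21), Myt1l (1.46), St18 (0.76), Pou4f1 (4.55), Gfra1 (4.36), Foxm1 (1.0), Nfib (0.82), Kif11 (0.99), Lhx2 (2.49) and Gcg (9.92). It was negative for Foxp2 (-2.41), Ret (-2.77) and Pck1 (-6.69). The values of Gcg and Pck1 depend on the prior count, since whole groups were at or near 0. Nkx2-2 entered this test through the Calca-high libraries. No conclusion is drawn from its value or from others with low Pomc-high counts, such as that of Pax9. Pax9 had 1 count in each Pomc-high Rb1/Trp53/Crebbp library. Nkx2-2 had 0 to 2 counts in every Pomc-high library but Rb1/Trp53/Crebbp T8.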

How the results depend on the processing

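Over both genotypes together, the log2 ratio of means between the sets kept its direction for each of the 8 genes. This held in 136 fits that left out 1 library and in 16 with another scaling. The median of all genes was shifted by 0.029 (TMM), 0.016 (DESeq2 size factors) or 0.166 (total count). Within Rb1/Trp53/Crebbp alone the ratio of Foxa3, Calca-high over Pomc-high, was 0.989, against 1.72 over all libraries. Leaving out 1 library in turn, Nkx2-1, Hhex, Foxa2 and Nkx2-2 stayed called in the Calca-high set (highest adjusted p 0.024, 0.00689, 0.0104 and 0.00545). Genes called numbered 3588 to 5312 in the Calca-high, 752 (without Rb1/Trp53/Crebbp T7) to 1214 in the Pomc-high set and 2487 to 3849 for the interaction. The same range for log2 values that crossed 0 was -0.031 to 0.11 (Isl1) and -0.17 to 0.51 (Gata6) in the Calca-high set and -1.73 to 0.29 (Isl1) in the Pomc-high set. For the interaction it was -0.97 to 1.19 (Hhex), -0.64 to 1.04 (Foxa1), -0.53 to 0.93 (Foxa2) and -0.42 to 1.67 (Isl1), each highest without Rb1/Trp53/Crebbp T8. With the thyroid covariate 1450 genes were called, and Foxa1 (0.003) and Isl1 (-0.09) changed sign. DESeq2 called 1917 genes in the Pomc-high set, and turned Isl1 in the interaction (0.13). With limma-voom the interaction of Hhex (0.15), Foxa1 (-0.04), Foxa2 (0.28) and Isl1 (0.52) changed sign, and 1 fit over all libraries turned Isl1 in the Pomc-high set (0.067). The cause was not tested.

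The replicate numbers did not pair the samples. With a replicate block 2700 genes were called in the Calca-high set, 354 in the Pomc-high set and 1253 for the interaction, and the sign changed for Gata6 in the Calca-high set (-0.16) and for Isl1 in the interaction (0.71). The interaction of Nkx2-1 was not called with the block (-1.73, adjusted p = 0.152) or with no filter on low counts (-2.28, adjusted p = 0.0622), and DESeq2 gave it no adjusted p. Gata6, Foxa3, and in the Pomc-high set all 8 genes but Nkx2-1, Isl1 and Gata6, were limited by low counts.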

Other observations

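Pituitary transcription factors were low in the Calca-high libraries, where 7 of 20 were tested and Lhx2 (2.60 ± 0.52, adjusted p = 0.00751 by edgeR) and Nr4a1 (1.05 ± 0.33, adjusted p = 0.0398) rose. Neurod4 fell (-0.92 ± 0.21, adjusted p = 0.0116). Nr4a1 lost its call in 5 of 7 fits that left out 1 library (highest adjusted p 0.127, without Rb1/Trp53 T3).

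Among liver and pancreas genes, where FOXA and HHEX act in development, 6 of 14 were tested in the Calca-high set, 2 rose and 4 did not pass. Gcg, the glucagon gene, had 12, 62, 66 and 199 counts in Rb1/Trp53/Crebbp libraries T1 to T4 and 0, 1 and 0 counts in Rb1/Trp53 libraries T1, T3 and T4 (adjusted p = 0.00251). Fgb, a fibrinogen gene, had 8, 106, 30 and 51 counts in Rb1/Trp53/Crebbp and 0, 4 and 6 counts in Rb1/Trp53 libraries (adjusted p = 0.0109). Alb was at 0 in every library.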
